A study of Mus musculus with 6 samples.

Results

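The genes described are the matrix metalloproteinases (MMPs), their tissue inhibitors (TIMPs) and the related metalloproteinase families ADAM and ADAMTS, as expressed in mouse hippocampus 24 h after a stroke-like injury. They were chosen by name: every gene of the deposited table whose symbol is Mmp, Timp, Adam or Adamts followed directly by a digit. This gave 71 of 41386 genes, made up of 22 MMP, 4 TIMP, 26 ADAM and 19 ADAMTS genes. Of the 71 genes, 62 had 10 or more reads over the 6 libraries and were tested. Another 7 genes (Mmp1b, Mmp7, Mmp20, Adam2, Adam24, Adam26a and Adam29) had no reads, and Adam28 and Adam30 had 8 and 5 reads. The genes nearest the limit that were tested were Mmp27 with 14 reads and Mmp10 with 19.

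RNA was sequenced from the hippocampus of C57BL/6 mice (C57BL/6J in the study's methods) aged 56 days in 2 groups of 3 libraries. In the ischemia/reperfusion (I/R) group the middle cerebral artery was closed with a filament for 1.5 h and reopened for 24 h, and in the sham group the operation was done without inserting the filament. No animal carried a transgene or received an agent according to the labels. Per the study's methods the animals were male, the hippocampus of the operated side was taken and each library pooled 3 hippocampi, so the p-values measure the spread between pools rather than between single animals. The libraries held 37493042 to 44788547 counted reads, and 3 reads in a library corresponded to at most 0.0878 CPM (counts per 1e6 reads of the library, scaled by the TMM method).

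MMPs are secreted or membrane-bound zinc enzymes that cut collagens, laminins and other proteins of the extracellular matrix, and after stroke they are best known for opening the blood-brain barrier. TIMPs bind and block their active sites. ADAMs are membrane proteins, many of which release the outer part of other membrane proteins, while some lack catalytic activity and act as receptors. ADAMTS enzymes are secreted, and several of them cut the chondroitin sulfate proteoglycans that fill the space around neurons.

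After I/R 20 of the 62 tested genes were called higher and 10 lower, and 32 were not called (edgeR's quasi-likelihood test; a call needed a Benjamini-Hochberg adjusted p below 0.05 and a change of more than 1.2-fold up or down). The 30 called genes were 48.4% of those tested, against 33.4% of the 22996 genes tested in the whole table. The share called higher was 32.3% against 17.2% of all genes, and the share called lower was 16.1% against 16.3%, so the share that fell was near that of all genes. The lowest I/R library exceeded the highest sham library in 24 genes (26.1% of all genes did so), and the highest I/R library was under the lowest sham library in 12 (24.3% of all genes). The median log2 fold change was 0.28 against 0.07 for all genes. The shares are a description, since 9 tested genes (Mmp3, Mmp8, Mmp10, Mmp12, Mmp13, Mmp21, Mmp27, Adam3 and Adam7) had under 10 reads in sham and passed the filter through I/R. Of these, 5 were among the 20 called higher. Of the other 53 genes 28.3% were called higher and 18.9% lower, while the shares over all genes were not limited in this way. With library size as the only scaling the median of all genes moved from 0.07 to 0.35, and the split of called genes moved from 66.7% higher to 78.8% higher, with 26 genes higher and 7 lower. Over all called genes it moved from 51.4% to 76.8% higher, so that with this scaling the split of the family genes was close to that of all genes.

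By family, 7 MMP genes were called higher and 2 lower of 19 tested, 1 TIMP gene higher and 2 lower of 4, 6 ADAM genes higher and 3 lower of 20, and 6 ADAMTS genes higher and 3 lower of 19. The median log2 fold change was 0.94 for MMP genes (0.59 with the genes at 0 in sham set to their lower bound), -0.11 for TIMP, 0.47 for ADAM and 0.22 for ADAMTS genes. In hippocampal tissue, fewer cells of a type and less RNA per cell cannot be told apart, and neither can more cells and more RNA per cell.

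**Figure D1:**
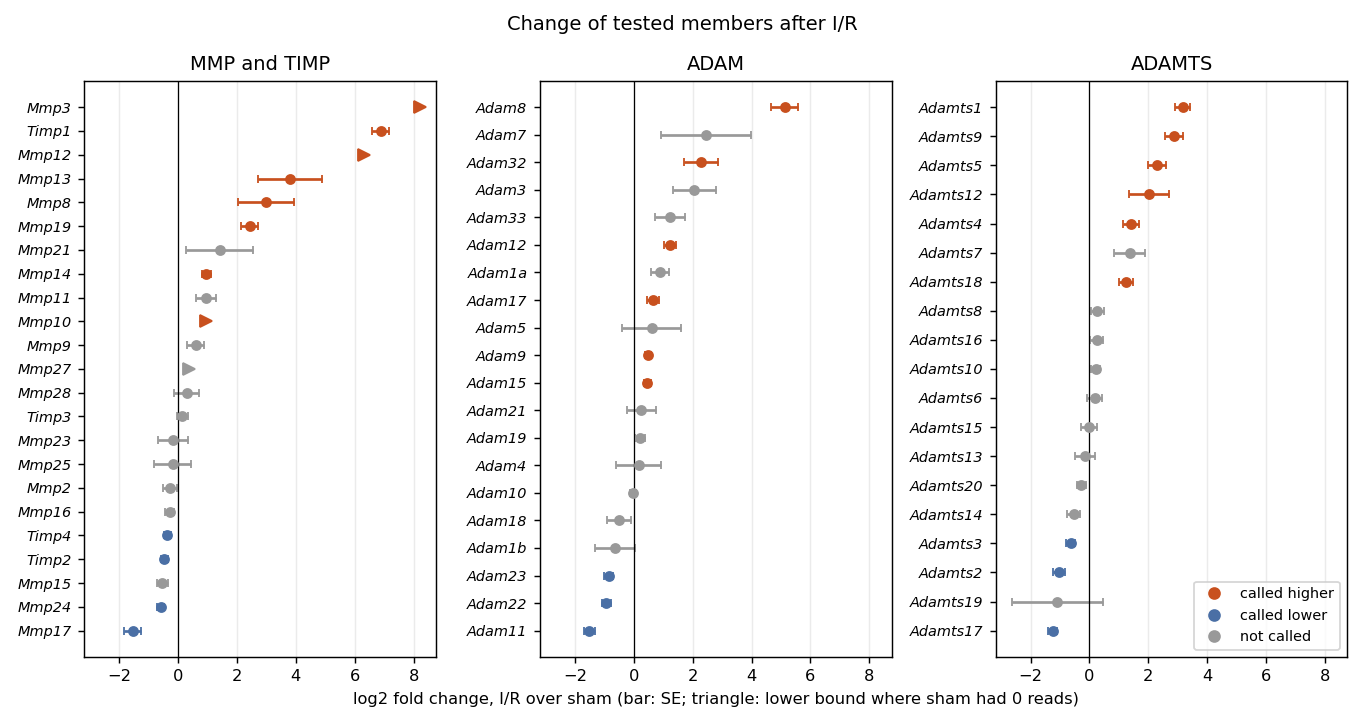
Log2 fold change of each of the 62 tested genes, I/R over sham, by family, with the SE as a bar. Triangles mark lower bounds for genes with 0 reads in all sham libraries. Orange genes were called higher, blue genes lower and grey genes were not called. Mmp3, Timp1, Mmp12 and Adam8 lie farthest to the right, and Mmp17 and Adam11 farthest to the left.

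Some of the largest changes were in a row of 9 MMP genes that follow each other on chromosome 9 (chr9:3975291-4403381 of the BALB/cJ assembly used by the table), over 428 kb. In the order of the table these are Mmp13, Mmp12, Mmp3, Mmp1b, Mmp10, Mmp8, Mmp27, Mmp20 and Mmp7. MMP genes of this kind are textbook targets of the transcription factor AP-1, whose binding element reads TGAGTCA. The promoters of Mmp13, Mmp12, Mmp3, Mmp10 and the unread Mmp7, which hold this element, and of Mmp8, which does not, are shown from 100 bases before to 20 bases after the transcription start, 5′ to 3′ on the strand of the gene, with each match to TGAGTCA on either strand in capitals. They were taken from RefSeq on GRCm38.p6 at chr9:7272414-7272533, chr9:7347274-7347393 (the second of the 2 annotated starts), chr9:7445722-7445841, chr9:7502242-7502361, chr9:7691990-7692109 and chr9:7558329-7558448, all on the + strand.
Mmp13: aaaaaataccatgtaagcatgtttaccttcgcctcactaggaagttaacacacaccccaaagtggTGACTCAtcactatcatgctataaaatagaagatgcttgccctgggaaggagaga
Mmp12: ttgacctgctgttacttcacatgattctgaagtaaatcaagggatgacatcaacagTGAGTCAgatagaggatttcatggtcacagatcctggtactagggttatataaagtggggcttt
Mmp3: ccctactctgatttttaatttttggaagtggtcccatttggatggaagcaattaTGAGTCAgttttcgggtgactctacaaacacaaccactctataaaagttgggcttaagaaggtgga
Mmp10: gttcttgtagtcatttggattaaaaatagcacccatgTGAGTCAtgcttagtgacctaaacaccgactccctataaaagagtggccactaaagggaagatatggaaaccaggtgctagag
Mmp7: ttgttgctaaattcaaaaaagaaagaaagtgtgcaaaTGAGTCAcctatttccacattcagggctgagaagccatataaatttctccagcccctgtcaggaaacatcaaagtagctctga
Mmp8: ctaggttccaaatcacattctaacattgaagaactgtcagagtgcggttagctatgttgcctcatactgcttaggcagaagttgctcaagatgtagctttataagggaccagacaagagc

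The match began 35 bases upstream of the start in Mmp13, 44 in Mmp12, 46 in Mmp3 and 63 in both Mmp10 and Mmp7. Over windows from 250 bases before to 50 after the start, 6 of the 9 genes of the row had a match, which included the unread Mmp7 and Mmp1b, while Mmp8, Mmp20 and Mmp27 had none. Mmp12 and Mmp7 each had another annotated start, not shown, whose window had no match. The Mmp1b promoter of RefSeq lies on the - strand between Mmp12 and Mmp3, whereas the row named Mmp1b in the table lies on the + strand between Mmp3 and Mmp10, so the pairing of promoter and row is uncertain. RefSeq promoters were found for 42 of the 71 genes, and 9 of their 47 promoters (19.1%) had a match, against 1709 of 32851 promoters in all (5.20%). Of these 9 matches, 6 were among the 11 promoters of the row. Outside the row only Adam19, Adam1b and Adam29 had a match, so the higher share belongs mainly to the row. By call, the match was in 4 of 15 promoters of genes called higher (Mmp3, Mmp10, Mmp12 and Mmp13), 0 of 8 of genes called lower, 2 of 19 of genes not called (Adam19 and Adam1b) and 3 of 5 of untested genes (Mmp7, Mmp1b and Adam29). All 4 matching genes called higher had under 10 reads in sham and passed the filter through I/R. They could not have been called lower, so nothing is drawn from the split by call. A match is a description of the letters and not a binding site, and the called Mmp8 and the unread Mmp7 show that match and call did not go together in every gene of the row.

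Mmp3 encodes stromelysin-1, which cuts many matrix proteins and activates other MMPs. It had 1548, 930 and 604 reads in I/R replicates 1, 2 and 3 and 0 reads in each sham library. The groups did not overlap, and I/R exceeded sham at least 299-fold (23.9 ± 9.23 CPM, SD, n = 3; adjusted p = 0.000228, edgeR) when sham is set to 3 reads per library. Mmp12, the macrophage elastase, had 306, 308 and 200 reads in I/R and 0 in each sham library. The rise was at least 80.4-fold (6.42 ± 1.36 CPM, SD, n = 3; adjusted p = 9.46e-05, edgeR). Both calls remained in each of the 15 alternative settings run for single genes.

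The other genes of the row had few reads. Mmp13, a collagenase, had 29, 31 and 10 reads in I/R and 0, 0 and 4 in sham (log2 fold change 3.81, SE 1.08, adjusted p = 0.0240). Mmp8, the collagenase of neutrophils, had 24, 14 and 10 reads in I/R and 4, 0 and 1 in sham (2.99, SE 0.95, adjusted p = 0.0381). Every I/R library lay above every sham library for both, yet no sham library had more than 4 reads. Mmp10, stromelysin-2, had 5, 7 and 7 reads in I/R and 0 in each sham library, at least 1.91-fold higher (adjusted p = 0.0270). Mmp27 had 12, 2 and 0 reads in I/R and 0 in sham and was not called (adjusted p = 0.118). Leaving out 1 library ended the call of Mmp13 (I/R replicate 2, sham 1 or sham 2), Mmp8 (I/R 1, I/R 2, sham 2 or sham 3) and Mmp10 (I/R 2, I/R 3 or any sham library). Without sham replicate 3 no sham read of Mmp13 was left, and its rise was at least 7.24-fold. Without sham replicate 1 a single sham read of Mmp8 was left, and its log2 fold change was 4.49. Mmp1b, Mmp20 and Mmp7 had no reads in any library.

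**Figure D2:**
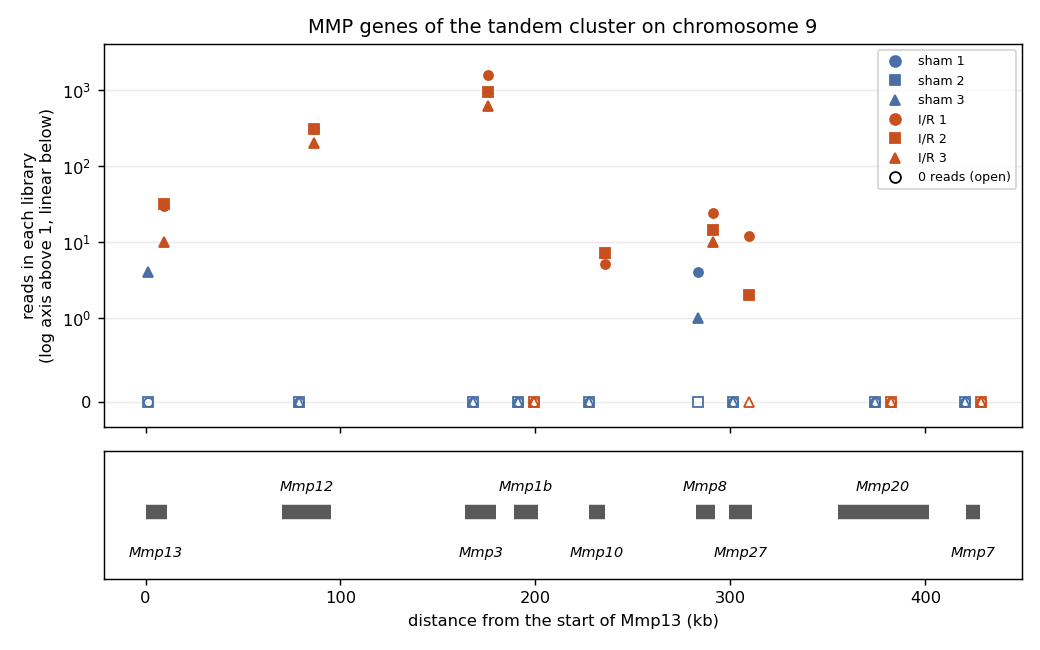
Reads in each library (upper panel, log axis above 1 and linear below) for the 9 MMP genes of the row on chromosome 9, plotted at their distance in kb from the start of Mmp13, with gene bodies drawn to scale in the lower panel. Sham libraries are blue and I/R libraries orange, shifted slightly to the left and right, and open symbols are at 0 reads. Mmp3 and Mmp12 have 200 to 1548 reads in I/R and 0 in sham, between genes with few or no reads.

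Markers of neutrophils and of monocytes and macrophages moved in the same direction as Mmp8 and Mmp12. The summed level of 12 neutrophil markers was 40.0, 10.4 and 10.4 CPM in I/R replicates 1, 2 and 3 and 4.48 to 5.82 CPM in sham, and 4 of the 7 that could be tested were called higher. Csf3r, Mpo and Ltf were not called. Most of the sham sum was Csf3r, with 4.17, 3.63 and 3.92 CPM in sham and 7.98, 2.07 and 3.86 CPM in I/R. Cxcr2, Elane, Ly6g, Ngp and Stfa2l1 were at 0 in all sham libraries, and Ly6g had 1 read in I/R. The summed level of 9 monocyte and macrophage markers (of 10 listed, Ly6c2 having no row of that name) was 91.9, 42.5 and 46.3 CPM in I/R and 12.7 to 16.7 CPM in sham, with 7 of 9 called higher and Plac8 at 0 in sham. The 8 microglia markers summed to 257 to 345 CPM in I/R and 257 to 292 CPM in sham, with 2 called higher and 3 lower. The neutrophil sum and the monocyte and macrophage sum were highest in I/R replicate 1. Mmp8 was also highest there (0.519, 0.349 and 0.249 CPM in I/R replicates 1, 2 and 3). Mmp12 was highest in replicate 2 (6.61, 7.68 and 4.98 CPM). The part of these cells in the MMP values was not tested.

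Among the MMP genes outside this row, Mmp19, a secreted MMP of blood vessels and macrophages, had 8.90, 7.45 and 5.23 CPM in I/R and 1.39, 0.944 and 1.67 CPM in sham. The lowest I/R library was above the highest sham library, and the log2 fold change was 2.43 (SE 0.29, adjusted p = 0.000527). It overlaps Tmem198b on the opposite strand by 794 bases, which was also called higher (log2 fold change 0.83), and whether reads were counted by strand is not stated. Mmp14 encodes MT1-MMP, a membrane-bound collagenase that activates the MMP-2 proenzyme. It rose from 17.8 ± 1.64 to 34.4 ± 6.75 CPM (SD, n = 3 each; log2 fold change 0.95, SE 0.15, adjusted p = 0.00171), without overlap between the groups.

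Mmp17 encodes MT4-MMP, which is held in the membrane by a lipid anchor, and was the most abundant MMP gene in sham. It had 62.6, 138 and 155 CPM in I/R and 334, 366 and 342 CPM in sham. All I/R libraries were low and replicate 1 was lowest, and the log2 fold change was -1.55 (SE 0.30, adjusted p = 0.00560). Mmp24, which encodes MT5-MMP, a membrane-type enzyme of neurons, fell from 30.9 ± 1.22 to 20.5 ± 2.41 CPM (SD, n = 3 each; log2 fold change -0.60, SE 0.11, adjusted p = 0.00405). Mmp15 (log2 fold change -0.54, adjusted p = 0.0639) and Mmp16 (-0.29, adjusted p = 0.145) were not called, and their groups overlapped. Without I/R replicate 1 Mmp15 was called (-0.73, adjusted p = 0.00272), as was Mmp16 without I/R replicate 3 (-0.47, adjusted p = 0.0215). Mmp15 was also called with DESeq2's Wald test and with a choroid plexus covariate. Of the 6 membrane-type genes, 1 was called higher and 2 lower, and the sixth, Mmp25, had 8 to 43 reads a library and was not called.

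The gelatinases, which cut denatured collagen and the collagen of basement membranes, were not called. Mmp9 had 3.16, 2.59 and 2.02 CPM in I/R and 1.47, 2.11 and 1.58 CPM in sham. The lowest I/R library lay under the highest sham library, and the log2 fold change was 0.59 (SE 0.28, adjusted p = 0.133), with a call (0.88, adjusted p = 0.0412) with library size as the only scaling. Mmp2 had 3.35, 2.47 and 2.14 CPM in I/R and 3.35, 2.91 and 3.48 CPM in sham (log2 fold change -0.29, SE 0.24, adjusted p = 0.397). The missed threshold does not show that either gene stayed the same. Mmp11, stromelysin-3, had 1.24 to 2.57 CPM in I/R and 0.790 to 1.13 CPM in sham without overlap and missed the threshold (log2 fold change 0.94, adjusted p = 0.0618). Mmp11 was called higher with library size as the only scaling, DESeq2's Wald test, limma on FPKM and without I/R replicate 3. The summed level of all MMP genes was 237, 291 and 289 CPM in I/R and 451, 489 and 474 CPM in sham, a sum in which Mmp17 is the largest term.

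Timp1 was the inhibitor gene with the largest change. It encodes a secreted inhibitor of most MMPs that is known to be induced by inflammatory signals. It had 77.8, 63.5 and 46.1 CPM in I/R and 0.541, 0.671 and 0.351 CPM in sham. The lowest I/R library was far above every sham library, and the log2 fold change was 6.88 (SE 0.28, adjusted p = 1.26e-05), or 118-fold. This call remained in each of those 15 alternative settings. Timp1 lies wholly inside Syn1, a synapsin gene on the opposite strand, which fell (log2 fold change -1.03).

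Timp2, the most abundant TIMP, which takes part in activating the MMP-2 proenzyme as well as inhibiting MMPs, fell from 374 ± 29.4 to 269 ± 19.97 CPM (SD, n = 3 each; log2 fold change -0.48, SE 0.11, adjusted p = 0.0115). Timp4 had 40.0, 48.7 and 53.5 CPM in I/R and 62.7, 59.0 and 61.7 CPM in sham (log2 fold change -0.37, SE 0.12, adjusted p = 0.0357). Timp3, which is bound to the matrix and also inhibits ADAM17 and ADAMTS enzymes, overlapped between the groups (log2 fold change 0.14, SE 0.17, adjusted p = 0.568). Neither fall was called with library size as the only scaling (Timp2 -0.20, adjusted p = 0.128; Timp4 -0.10, adjusted p = 0.481). Leaving out sham replicate 2 ended the call of Timp2 (adjusted p = 0.0625), and the call of Timp4 was lost without I/R replicate 1, I/R replicate 2 or any sham library. Timp3 and Timp4 lie inside the synapsin genes Syn3 and Syn2 on the opposite strand, which fell (log2 fold change -0.63 and -1.32). The summed level of the 4 TIMP genes was 448 to 499 CPM in I/R and 488 to 544 CPM in sham, so the groups overlapped.

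Of the 8 tested ADAM genes listed here as proteases, a list without the testis and sperm genes, 5 were called higher and none lower. Adam8, a protease of leukocytes and activated microglia, had 92.8, 39.3 and 34.1 CPM in I/R and 1.54, 1.79 and 1.40 CPM in sham. I/R replicate 1 was more than double the other I/R libraries, and all 3 were far above sham. The log2 fold change was 5.13 (SE 0.45, adjusted p = 0.000352) and 4.53 without I/R replicate 1. Adam12, a protease of muscle and connective tissue cells, had 21.9, 14.7 and 12.7 CPM in I/R and 6.90, 7.80 and 6.23 CPM in sham. It rose without overlap (log2 fold change 1.23, SE 0.21, adjusted p = 0.00250).

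The widely expressed members changed less. Adam17 encodes TACE, which releases tumor necrosis factor and ligands of the epidermal growth factor receptor from the cell surface, and had 34.8, 20.3 and 21.0 CPM in I/R and 15.8, 14.7 and 17.6 CPM in sham (log2 fold change 0.66, SE 0.21, adjusted p = 0.0353). Adam9 rose by 0.48 (SE 0.12, adjusted p = 0.0117) and Adam15 by 0.46 (SE 0.11, adjusted p = 0.0142) on the log2 scale. For these 3 genes no I/R library fell below a sham library, but the calls of Adam17 and Adam15 were lost without any 1 of the sham libraries and that of Adam9 without sham replicate 1 or 2. Adam10, the main alpha-secretase of the amyloid precursor protein, had 108, 111 and 108 CPM in I/R and 119, 102 and 112 CPM in sham (log2 fold change -0.03, SE 0.09, adjusted p = 0.826), with the sign turned to 0.25 with library size as the only scaling. Adam19 was also not called (log2 fold change 0.21, SE 0.17, adjusted p = 0.394). Adam33 had lower levels, 0.871 to 2.55 CPM in I/R and 0.360 to 1.08 CPM in sham. Its groups overlapped and it was not called (log2 fold change 1.24, SE 0.51, adjusted p = 0.0923). A call of Adam33 came with library size as the only scaling, with a choroid plexus covariate and without I/R replicate 3.

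The genes listed as partners of ADAM10 and ADAM17 were counted beside them. Of 8 tested, 3 were called higher (37.5%, against 17.2% of all genes) and 2 lower (25%, against 16.3%). The median log2 fold change was 0.16, against 0.07 for all genes. Rhbdf1 and Rhbdf2 encode iRhom1 and iRhom2, which carry ADAM17 to the cell surface, and rose by 1.23 (SE 0.13, adjusted p = 0.000375) and 2.42 (SE 0.36, adjusted p = 0.00133) on the log2 scale. Frmd8, which also rose, encodes a protein that stabilizes iRhoms (0.96, adjusted p = 0.00345). Tspan33, one of the tetraspanins that bind ADAM10, fell (log2 fold change -1.22, SE 0.17, adjusted p = 0.00109).

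The 3 ADAM genes of neurons that lack protease activity all fell. Adam11 had 81.7, 125 and 141 CPM in I/R and 324, 340 and 324 CPM in sham. Every I/R library was under the sham range and replicate 1 was lowest (log2 fold change -1.51, SE 0.18, adjusted p = 0.000567). Adam22, a receptor for the secreted synaptic protein LGI1, had 98.3, 128 and 160 CPM in I/R and 255, 242 and 242 CPM in sham (log2 fold change -0.94, SE 0.16, adjusted p = 0.00255). Adam23, which also binds LGI1, had 58.3, 86.7 and 93.7 CPM in I/R and 152, 136 and 144 CPM in sham (log2 fold change -0.86, SE 0.16, adjusted p = 0.00408). Each of the 3 calls remained in each of those 15 alternative settings, while the changes of Adam22 and Adam23 were under 2-fold. Of the 4 Lgi genes, which encode the ligands, Lgi1 (log2 fold change -0.54, adjusted p = 0.0282), Lgi2 (-0.56, adjusted p = 0.00451) and Lgi3 (-0.72, adjusted p = 0.000489) fell and Lgi4 was not called (-0.06, adjusted p = 0.734).

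Neuronal markers moved in the same direction as Adam11, Adam22, Adam23 and Mmp17. The summed level of 8 neuronal markers was 2060, 3672 and 4000 CPM in I/R replicates 1, 2 and 3 and 7030 to 7368 CPM in sham, with 7 of 8 called lower and Gad2 not called. The order of the 3 I/R libraries in this sum, replicate 1 lowest and replicate 3 highest, was the order of all 4 genes. Timp4 and Adamts17 had this order too, so it was not particular to them. Whether neuron content accounts for these falls was not tested. The astrocyte markers changed in both directions. The 7 markers summed to 4362 to 4616 CPM in I/R and 4514 to 4836 CPM in sham, with Gfap (log2 fold change 2.29) and Aqp4 called higher and 4 called lower, among them Slc1a2 (-0.98). The 8 oligodendrocyte markers summed to 4851 to 5397 CPM against 6211 to 7674 CPM, with 4 called lower.

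ADAM genes known mainly from testis and sperm were near the floor. Of 9 tested, Adam32 was called higher, with 44, 33 and 35 reads in I/R and 9, 2 and 9 in sham (log2 fold change 2.28, SE 0.57, adjusted p = 0.0135). It lies in a row of 5 ADAM genes on chromosome 8 (chr8:21946720-22353635, BALB/cJ) next to Adam9, which was also called higher, while Adam18, Adam3 and Adam5 of the same row were not. The other 8 had 0 to 48 reads a library except Adam1a, which had 84 to 316 reads and missed the threshold (log2 fold change 0.88, adjusted p = 0.0527). Adam1a lies within Tmem116 on the opposite strand.

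The ADAMTS genes that cut proteoglycans included the largest rise in level. Of 7 tested, 4 were called higher and none lower, with a median log2 fold change of 1.42. Adamts1 had 338, 241 and 169 CPM in I/R and 28.9, 24.8 and 29.7 CPM in sham. The lowest I/R library was more than 5 times the highest sham library, and the log2 fold change was 3.16 (SE 0.24, adjusted p = 0.000149), or 8.97-fold. Adamts9 had 90.9, 53.0 and 38.2 CPM in I/R and 9.19, 7.18 and 8.60 CPM in sham (log2 fold change 2.87, SE 0.31, adjusted p = 0.000576). It overlaps A730049H05Rik on the opposite strand, which also rose (log2 fold change 4.04).

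Adamts4 and Adamts5, the aggrecanases of cartilage, both rose. Adamts4 had 143, 79.0 and 66.2 CPM in I/R and 36.1, 31.5 and 40.0 CPM in sham (log2 fold change 1.42, SE 0.27, adjusted p = 0.00565). Adamts5 had 13.9, 7.43 and 6.82 CPM in I/R and 1.52, 2.11 and 2.08 CPM in sham (log2 fold change 2.30, SE 0.31, adjusted p = 0.000840). In both, I/R replicate 1 was highest and the groups did not overlap. Adamts1 and Adamts5 are neighbours on chromosome 16 (chr16:82946047-83058569, BALB/cJ). The 3 that were not called were Adamts8 (log2 fold change 0.27), Adamts15 (0.00) and Adamts20 (-0.28). The summed level of all 19 ADAMTS genes was 684, 464 and 364 CPM in I/R and 170 to 187 CPM in sham, while that of the ADAM genes was 738 to 776 CPM against 1013 to 1038 CPM.

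The proteoglycans these enzymes cut did not change together. Acan, aggrecan, rose from 7.69 ± 0.954 to 178 ± 72.5 CPM (SD, n = 3 each; log2 fold change 4.54, SE 0.31, adjusted p = 0.000146), and Vcan, versican, rose by 0.44 on the log2 scale (adjusted p = 0.0110). Bcan, brevican, fell from 264 ± 6.08 to 132 ± 14.0 CPM (log2 fold change -1.002, SE 0.11, adjusted p = 0.000368). Ncan, neurocan, was not called (log2 fold change -0.20, adjusted p = 0.192).

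Endothelial markers were higher in I/R together with Adamts1, Adamts4, Adamts5 and Adamts9. The 8 markers summed to 568, 448 and 376 CPM in I/R replicates 1, 2 and 3 and 267 to 269 CPM in sham, with 7 called higher and Slco1a4 lower. The 9 pericyte and fibroblast markers summed to 242 to 318 CPM in I/R and 210 to 227 CPM in sham, with 5 called higher and Rgs5 lower. The order of the I/R libraries in both sums was that of Adamts1, Adamts4, Adamts5 and Adamts9. Mmp3, Timp1, Adam8 and other genes called higher had this order too, so it was not particular to the ADAMTS genes. The part of these cells in the ADAMTS values was not tested.

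The remaining ADAMTS genes moved in both directions. The procollagen N-propeptidases, which trim fibrillar collagens, fell in 2 of 3 cases. Adamts2 had 9.88, 6.33 and 6.10 CPM in I/R and 13.8, 17.1 and 14.7 CPM in sham (log2 fold change -1.03, SE 0.20, adjusted p = 0.00480; -0.60, adjusted p = 0.0542 with limma on FPKM). Adamts3, which also activates the lymphatic growth factor VEGF-C, fell by 0.63 on the log2 scale (SE 0.15, adjusted p = 0.0110; adjusted p = 0.0717 with library size as the only scaling), and Adamts14 was not called (log2 fold change -0.53, adjusted p = 0.0843). Adamts17 had 4.84, 5.38 and 5.95 CPM in I/R and 12.4, 13.4 and 12.8 CPM in sham. Its I/R libraries lay close together under the sham range, and the log2 fold change was -1.25 (SE 0.15, adjusted p = 0.000495).

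Adamts18 had 2.70, 2.69 and 2.69 CPM in I/R and 1.11, 1.07 and 1.23 CPM in sham, a rise without overlap (log2 fold change 1.25, SE 0.24, adjusted p = 0.00405). The I/R values came from 125, 108 and 108 reads, too few for their closeness to measure the spread between pools. Adamts12 had 28, 18 and 21 reads in I/R and 3, 2 and 9 in sham (log2 fold change 2.02, SE 0.68, adjusted p = 0.0474). That call was lost when any 1 library other than sham replicate 3 was left out, and without sham replicate 3 the log2 fold change was 2.995. The 6 others of this group, among them Adamts10 with 17.8 ± 0.159 CPM in sham and 20.8 ± 4.44 CPM in I/R (SD, n = 3 each; log2 fold change 0.22, adjusted p = 0.300), were not called. Adamts7, also among them, had a log2 fold change of 1.37 (SE 0.54, adjusted p = 0.0797) at low levels, with overlap between the groups. A call of Adamts7 came with DESeq2's Wald test and with library size as the only scaling.

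**Figure D3:**
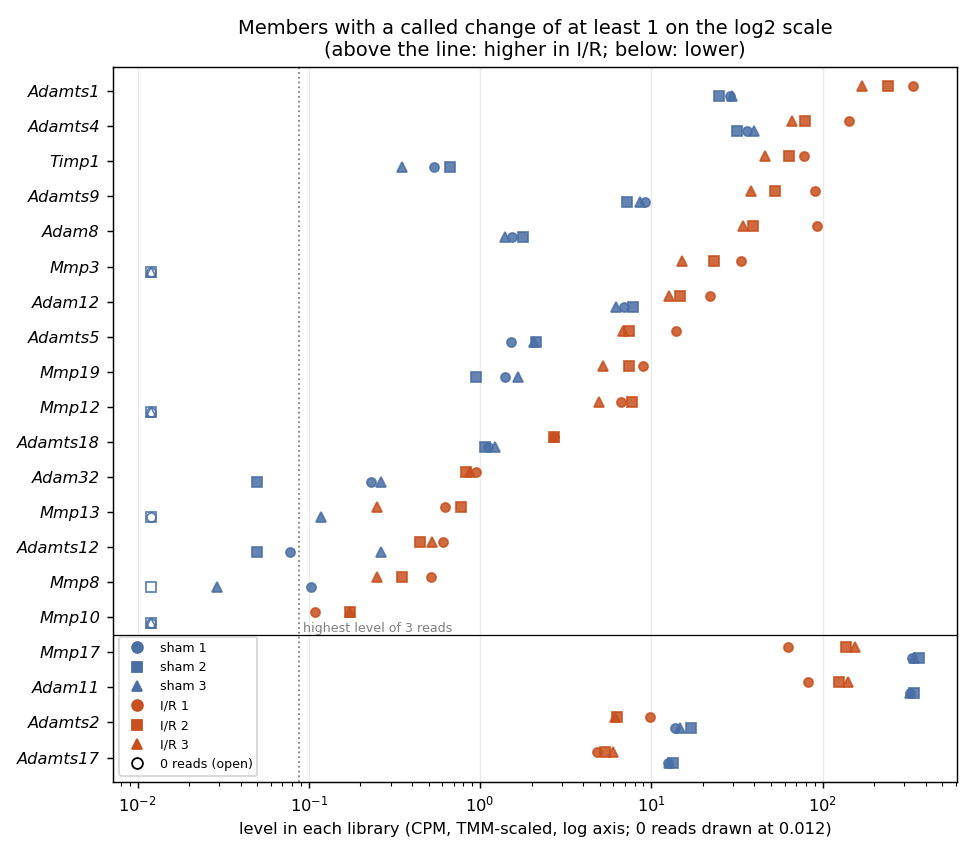
Level in each library (CPM, TMM-scaled, log axis) of the 20 genes called with an absolute log2 fold change of 1 or more. Sham libraries are blue, I/R libraries orange, symbols give the replicate number, and open symbols at 0.012 stand for 0 reads. The groups do not overlap in any of the 20 genes, and I/R replicate 1 (circles) lies at the outer end in many of them.

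I/R replicate 1 stood apart in many of these genes. It was the highest I/R library in 17 of the 20 genes called higher and the lowest in 9 of the 10 called lower. It also had the lowest neuronal and the highest neutrophil, macrophage and endothelial marker sums. Without it 29 genes were called, 18 higher and 11 lower. The choroid plexus markers varied over a wide range within both groups (9 markers summing to 42.8 to 3635 CPM in I/R and 43.8 to 4543 CPM in sham, none called), and with their score as a covariate 31 genes were called, 20 higher and 11 lower.

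Per gene length, the order of the genes differed between the groups. FPKM, the deposited level divided by gene length and library size, is meant to let levels of different genes be compared. For 43 of the 71 genes the gene length behind it differed by over 1% from the length column, for some by far more. In sham replicate 1 Adam11 had fewer reads than Timp2 (12582 against 13499) and a longer listed length (5110 against 3305 bases). Its deposited FPKM was nevertheless higher (188 against 96.3). The order given here is that of the deposited values. With the listed lengths Adam11 would lie below Timp2 in that library. In sham the highest levels were those of Adam11 (190 ± 3.62 FPKM, SD, n = 3), Timp2 (103 ± 7.09), Mmp17 (89.2 ± 3.42), Adam22 (82.8 ± 3.21) and Adam10 (46.2 ± 4.07). In these deposited values Mmp17 and Adam22 lay within 2 SD of each other, while Adam11 stood clear of Timp2. In I/R the highest was Adamts1 (105 ± 41.1 FPKM), which was 14th in sham, followed by Timp2 (89.4 ± 2.46), Timp1 (80.9 ± 24.5), which was 38th in sham, and Adam11 (80.1 ± 17.7). These 4 did not differ beyond their spread in I/R. Adam8 moved from place 34 to 11, and Mmp3, which was listed at 0 in sham together with Mmp10, Mmp12 and Mmp27, was at place 18 in I/R.

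**Figure D4:**
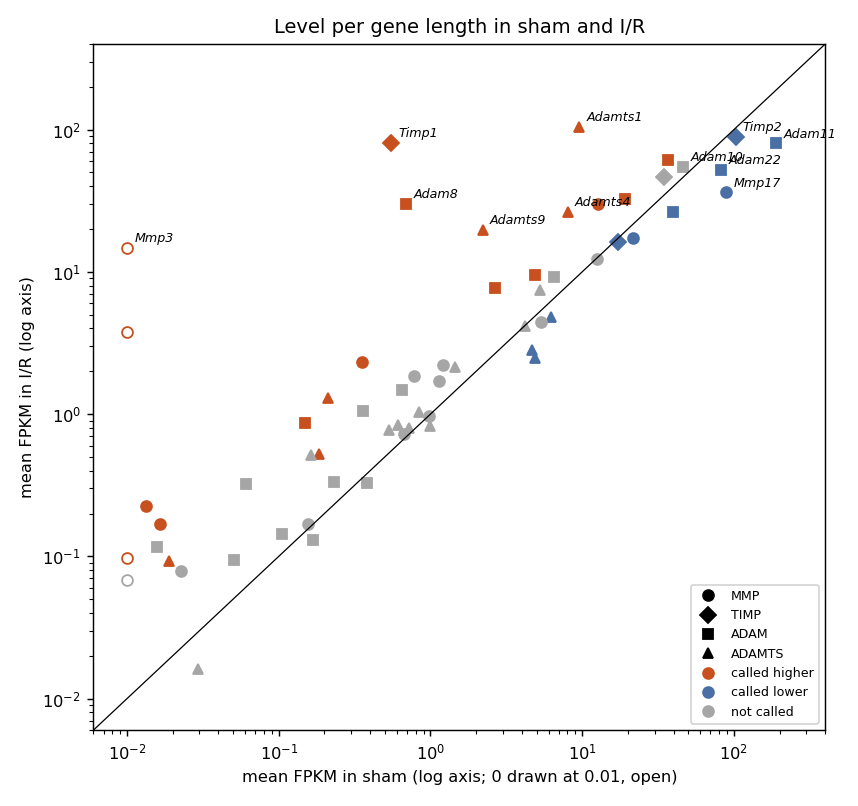
Mean FPKM in I/R against mean FPKM in sham for the 62 tested genes, both on log axes, with the line of equal level. Symbols give the family and colours the call, and open symbols at 0.01 are listed at 0 in sham. Timp1, Adam8 and Mmp3 lie far above the line, Adamts1 is highest in I/R, and Adam11 and Mmp17 lie below the line. FPKM is not TMM-scaled, so genes with small called falls lie close to the line.

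Genes that switch metalloproteinases on or hold them back moved in both directions. Of 17 tested activators and inhibitors, 7 were called higher (41.2%, against 17.2% of all genes). The 3 called lower (17.6%) were near the share of all genes (16.3%). Their median log2 fold change was 0.02, against 0.07 for all genes. Plau, the urokinase plasminogen activator, rose from 1.85 ± 0.355 to 13.1 ± 4.68 CPM (SD, n = 3 each; log2 fold change 2.83, SE 0.29, adjusted p = 0.000303), and its receptor gene Plaur from 0.877 ± 0.603 to 32.1 ± 10.9 CPM (log2 fold change 5.19, SE 0.49, adjusted p = 0.000403). A2m, a broad trap for proteases, rose by 3.44 on the log2 scale (SE 0.38, adjusted p = 0.000799).

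Furin, a convertase that removes the prodomain of membrane-type MMPs and many ADAMs, rose by 0.81 on the log2 scale (adjusted p = 0.00433). The testican genes Spock2 (log2 fold change -1.12, SE 0.16, adjusted p = 0.00122) and Spock1 (-1.16, SE 0.28, adjusted p = 0.0145) fell, as did Reck (-0.45, adjusted p = 0.0303), a membrane-anchored MMP inhibitor. Of 7 tested ADAMTS-like genes and relatives, which resemble ADAMTS proteins without their protease domain, Adamtsl3 (log2 fold change 2.31, SE 0.35, adjusted p = 0.00140) and Adamtsl4 (1.66, SE 0.24, adjusted p = 0.00121) rose and none was called lower, with a median of -0.03. In all 5 lists together 14 of 40 tested genes were called higher (35%, against 17.2% of all genes) and 9 lower (22.5%, against 16.3%).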

How the data were processed

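RNA-seq counts of mouse hippocampus from 3 sham and 3 I/R libraries were used, grouped by the sample titles. The authors aligned reads with TopHat2 and deposited raw counts per gene made with HTSeq, and deposited FPKM values computed from these counts. The submitters' processing notes name mm8 and Bowtie 0.12.2, whereas 40303 of 41386 gene identifiers are of the BALB/cJ annotation of Ensembl. The mice were C57BL/6. Strand use in counting is not given in the sources used here. The 4 broken lines among 41390 were rejoined. The authors' comparison columns (fold changes, p-values, calls and group means) were not used.

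Genes with 10 or more reads in all were tested on counts with edgeR 4.0.16 (R 4.3.3; TMM scaling, robust quasi-likelihood F-test, Benjamini-Hochberg adjustment over 22996 genes), and the fit was tested on simulated data. The SE is the log2 fold change divided by the square root of F. Genes at 0 in sham are given as bounds against 3 counts per library, which cover counting error only. The members and lists were chosen with earlier results of these data known. Named are the called genes, the TIMPs, genes of 10 CPM or more and related genes called at an absolute log2 fold change of 1 or more. A related gene that met this rule is not reported here. Others, among them Mmp2, Mmp9, Mmp11, Mmp27, Adam33, Adamts7, Adamts8, Adamts14, Adamts15, Furin, Reck, Vcan and the Lgi genes, were named after values were seen. Alternatives used DESeq2 1.42.0, limma 3.58.1 on log2(FPKM + 1), other scalings, filters, a replicate block, a choroid plexus covariate, a fold change over 2 and leaving out each library. An exact permutation test of 3 against 3 libraries cannot go below p = 0.1 and was not used. Protein sequences were not analysed here.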

Additional observations from a re-analysis of the deposited data

How the results depend on the processing

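The call of 19 of the 30 called genes remained under each of the up to 15 alternatives run for single genes at the 1.2-fold limit, and no called gene turned direction. The count of called members was 30 with DESeq2 size factors or upper quartile scaling, 33 with library size only, 34 with DESeq2's Wald test, 29 with edgeR's filterByExpr, which left Mmp10 untested, and 31 without a filter. With a fold change over 2, 20 members were called, of which 4 were lower, and 2937 of all genes. With limma on log2(FPKM + 1), 19 members were higher and 6 lower, and Adamts2, Adamts3, Adamts12, Mmp8, Mmp10, Timp2 and Timp4 were not called. Leaving out each library in turn gave 21 to 32 called members, 13 to 21 higher and 8 to 11 lower, and 5177 to 8124 called genes in all. The lowest counts came without sham replicate 2.

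Some uncalled genes changed sign. Adam10 was at 0.25 with library size only, 0.24 with limma on FPKM and between -0.090 and 0.023 with a library left out. Adam19 ranged from -0.0084 (without I/R replicate 1) to 0.34 with a library left out, and Adamts20 was at 0.0076 with limma on FPKM. The cause was not tested.

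Replicate numbers did not pair the libraries: deviations of libraries with the same number correlated at -0.18, 0.03 and -0.29 over 15479 genes, and no library correlated best with its own number. With the replicate number as a block, 26 members were called (17 higher and 9 lower), without Adamts12, Mmp10, Mmp13 and Timp4, and 6391 genes in all.

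With 3 pools a group, calls near the threshold depended on single libraries. A count of under 10 reads in sham leaves the size of a rise open to counting error, and a level in pooled tissue does not separate cell number from level per cell.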
